A study of Mus musculus with 2 samples.

Results

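The metallothioneins and the main genes of zinc handling were followed in adult mouse cerebral cortex: Mt1, Mt2, Mt3, Mtf1, Slc30a1 and Slc30a3, 6 of the 55536 genes in the deposited tables. They were chosen by name, and their symbols in the transcript tables gave the gene identifiers under which their values were read. The study sequenced poly(A)+ RNA of B6NCrl mice (a C57BL/6 substrain) aged 6 months, taken from the left cerebral cortex, with 20 ng of starting RNA per library and Nextera tagmentation, in which a transposase fragments and tags the cDNA. The labels gave no treatment, mutation or second tissue, so that the 2 libraries, numbered as biological replicates 1 and 2, form 1 group. The description of the tissue said male, while the field for sex said that it was not collected. The libraries had separate biosample records but the same donor entry, and any difference or p-value between them measures only the spread between these 2 libraries, which may be technical. In whole tissue, fewer cells of a type and less RNA per cell cannot be told apart.

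Metallothioneins are short, cysteine-rich proteins that hold zinc and copper ions in clusters of thiolate groups and buffer free metal in the cell. Mt1 and Mt2 are made in many tissues, in brain mostly in astrocytes, and are induced by zinc, cadmium, glucocorticoids and oxidative stress, whereas Mt3 is the brain-enriched form, first described as an inhibitor of neuronal growth. Mtf1 is the zinc finger transcription factor that senses free zinc and binds metal response elements before Mt1, Mt2 and Slc30a1. Slc30a1 (ZnT1) exports zinc across the plasma membrane, and Slc30a3 (ZnT3) loads zinc into the synaptic vesicles of a class of glutamatergic neurons.

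The coding sequences of the 3 expressed metallothioneins show what the family shares. They were read from the GENCODE M21 transcripts (mm10), and the capitals mark each in-frame cysteine codon, TGC or TGT.
Mt1-201: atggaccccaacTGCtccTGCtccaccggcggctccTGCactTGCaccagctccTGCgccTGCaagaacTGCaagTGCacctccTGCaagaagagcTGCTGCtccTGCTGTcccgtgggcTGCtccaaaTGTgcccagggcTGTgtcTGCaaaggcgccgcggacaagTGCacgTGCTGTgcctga
Mt2-201: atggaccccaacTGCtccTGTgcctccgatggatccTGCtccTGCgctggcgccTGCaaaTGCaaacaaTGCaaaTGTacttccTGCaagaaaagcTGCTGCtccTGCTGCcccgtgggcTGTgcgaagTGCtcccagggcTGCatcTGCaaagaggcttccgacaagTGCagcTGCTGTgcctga
Mt3-201: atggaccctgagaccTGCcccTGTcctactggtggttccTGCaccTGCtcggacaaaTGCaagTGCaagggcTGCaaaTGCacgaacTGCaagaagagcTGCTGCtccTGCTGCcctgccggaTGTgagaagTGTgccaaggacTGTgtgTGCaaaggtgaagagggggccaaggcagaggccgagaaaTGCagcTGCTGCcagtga
Each of them held 20 cysteine codons, of which 16 were TGC and 4 were TGT, among 61 codons before the stop in Mt1 and Mt2 and 68 in Mt3. The coding sequences of Mt1 and Mt2 were identical at 79.6% of 186 aligned bases. Mt3, at 207 bases, was identical to Mt1 at 66.2% of aligned columns and to Mt2 at 67.6%, with the 21 additional bases counted as gaps. Their longest common runs were 20 bases between Mt1 and Mt2, 27 between Mt1 and Mt3 and 20 between Mt2 and Mt3.

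On mm10, the 4 mouse metallothionein genes lay on 1 strand within 43131 bases of chromosome 8. Mt4 came first (chr8:94137197-94139031), followed by Mt3 (chr8:94152607-94154146), Mt2 (chr8:94172664-94173568) and Mt1 (chr8:94179082-94180327), all on the plus strand, with 5513 bases between Mt2 and Mt1. Their identifiers were ENSMUSG00000031757.7 for Mt4, ENSMUSG00000031760.9 for Mt3, ENSMUSG00000031762.7 for Mt2 and ENSMUSG00000031765.8 for Mt1. The 250 bases before the RefSeq start of Mt1, Mt2 and Mt3 (GRCm38.p6, plus strand) are shown because these neighbours differed in level, as given below. The capitals mark the core of the metal response element, searched as TGCACNC or TGCGCNC on both strands, with overlapping matches counted each.
Mt1 (chr8:94178839-94179088): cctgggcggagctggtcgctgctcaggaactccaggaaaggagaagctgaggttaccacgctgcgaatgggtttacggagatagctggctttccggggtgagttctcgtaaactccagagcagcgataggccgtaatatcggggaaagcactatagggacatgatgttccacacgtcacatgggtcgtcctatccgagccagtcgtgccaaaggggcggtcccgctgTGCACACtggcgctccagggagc
Mt2 (chr8:94172368-94172617): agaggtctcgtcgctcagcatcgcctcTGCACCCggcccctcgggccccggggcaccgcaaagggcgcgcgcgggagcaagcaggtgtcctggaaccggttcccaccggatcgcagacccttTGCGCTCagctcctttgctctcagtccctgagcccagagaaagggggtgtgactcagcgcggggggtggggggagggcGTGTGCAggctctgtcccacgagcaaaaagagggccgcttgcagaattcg
Mt3 (chr8:94152357-94152606): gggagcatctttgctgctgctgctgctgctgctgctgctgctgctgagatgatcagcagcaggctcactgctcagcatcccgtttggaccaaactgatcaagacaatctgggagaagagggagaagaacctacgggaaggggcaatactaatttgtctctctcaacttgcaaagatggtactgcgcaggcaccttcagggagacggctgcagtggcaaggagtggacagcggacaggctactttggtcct
The window of Mt1 held 1 match, ending 17 bases before the start, that of Mt2 held 3, and that of Mt3 held none and carried a run of ctg repeats near its 5′ end. Of 32851 windows of this length before RefSeq starts, 21.4% held at least 1 match and 1.26% at least 3. Among the other genes, the window of Slc30a1 held 1 match, that of Mtf1 none, and the 2 windows of Slc30a3 none and 1. All 6 genes and Mt4 matched an entry of this RefSeq table. A match describes letters, not a bound site, and the absence of one says nothing about the factor.

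Further matches lay after the starts annotated in GENCODE, which differ from the RefSeq starts for Mt1, Mt2 and Mt4. Mt2-201 starts at base 94172664 and its RefSeq entry at 94172618, so the bases between them lie in neither window. Mt1-201 starts at 94179082 and its RefSeq entry at 94179089, so its windows overlap. The counts before the starts of Mt1 and Mt2 thus rest on RefSeq starts alone. In the first 112 bases of the main transcript, Mt1-201 held 4 cores, Mt2-201 held 3 and Mt3-201 held 3, while Mt4-201 held none. This window was chosen after the matches of Mt1 had been seen. Of 58730 protein coding transcripts of at least this length, 0.249% held at least 3 in the same window and 0.0272% at least 4. The closest pairs of cores are shown, again in capitals.
Mt1-201, bases 10 to 34 (chr8:94179091-94179115): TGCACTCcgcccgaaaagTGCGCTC
Mt1-201, bases 92 to 112 (chr8:94179173-94179193): GGGTGCAaacccttTGCGCCC
Mt2-201, bases 13 to 38 (chr8:94172676-94172701): GTGTGCAggcggcgggggcGCGTGCA
The start codon began at base 230 of Mt1-201, at base 185 of Mt2-201 and at base 194 of Mt3-201, so by this annotation these matches fell in 5′ untranslated exon sequence. The start used in cortex was not tested, and from a start farther downstream some of these matches would lie in the promoter.

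Depth came to 51888568 fragments assigned to genes for replicate 1 and 26776336 for replicate 2, or 76100930 and 46367810 in a second quantification of the same reads. Expected counts, the fragments assigned to a gene, and TPM, a level per length that sums to the same total in each library, are the authors' values, and CPM below is the expected count divided by a library size scaled by TMM. The libraries also differed in the fragment length implied by their effective transcript lengths. It was 164 bases in replicate 1 and 124 in replicate 2, or 134 and 98.3 in the second quantification. The effective length of Mt1, which enters its TPM, was 386 and 426 bases. A TPM of 1 or more in each library was reached by 13800 genes. All 12 astrocyte markers and all 8 excitatory neuron markers examined reached that level, with Aldoc at 1263 ± 189 and Camk2a at 965 ± 166 TPM (SD, n = 2).

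Mt3 and Mt1 stood at the level of abundant ribosomal protein genes, and the third expressed metallothionein, Mt2, stood several times lower. Mt3 was at 1007 TPM in replicate 1 and 999 in replicate 2 (1003 ± 5.94, SD, n = 2), which ranked it 147th of all genes. Mt1 was at 920 and 899 TPM (909 ± 14.6) and ranked 167th. The libraries stood close together for both genes, and every value of Mt3 was above every value of Mt1. The nearest protein coding genes by mean TPM were Uchl1 (1012), a neuronal ubiquitin hydrolase, and the ribosomal protein gene Rpl36a (1002) for Mt3. For Mt1 they were Rpl28 (925), another ribosomal protein gene, and the initiation factor Eif1 (904 ± 663, SD, n = 2), whose values in the libraries were far apart.

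Mt2 was at 255 TPM in replicate 1 and 196 in replicate 2 (226 ± 41.3, SD, n = 2) and ranked 663rd, beside Tmem50a (226) and the mitochondrial ribosomal protein gene Mrps24 (225). Its values in the libraries were farther apart than those of Mt1 and Mt3, and neither reached their range. Mt1 exceeded Mt2 by 3.61-fold in replicate 1 and 4.58-fold in replicate 2, although the pair are neighbours in the genome. In the second quantification the corresponding ratios were 3.51 and 4.26. Mt4, a form known from stratified epithelia, had 0 fragments in both libraries and both quantifications, which allows at most 0.0605 CPM in replicate 1 and 0.107 in replicate 2 (3 fragments), for counting error only. Summed, Mt1, Mt2 and Mt3 made up 2182 TPM in replicate 1 and 2094 in replicate 2.

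**Figure D1:**
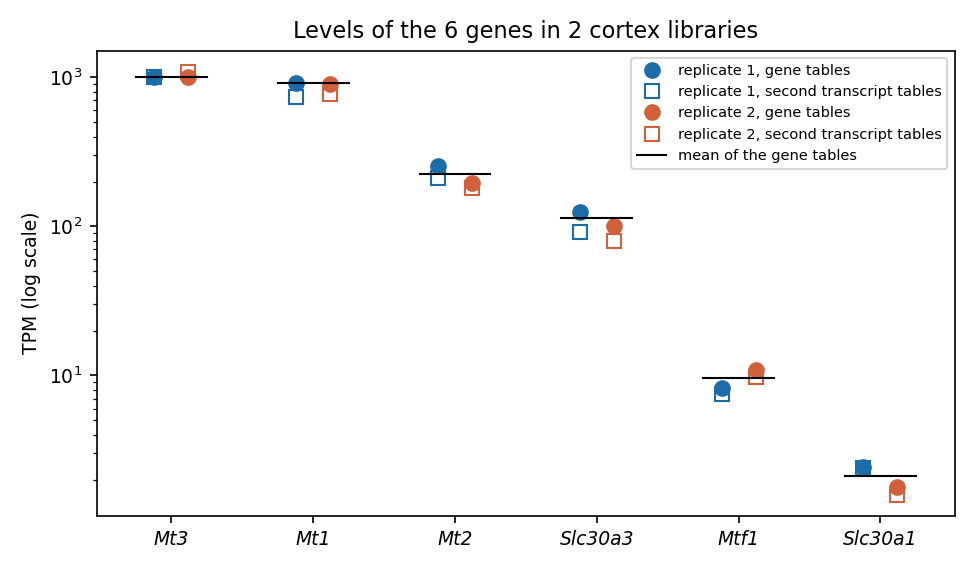
TPM (log scale) of the 6 genes in each library, as filled circles for the gene tables and open squares for the second transcript tables, with a line at the mean of the gene tables. Mt3 and Mt1 lie near 1003 and 909 TPM, Mt2 and Slc30a3 at 226 and 113, and Mtf1 and Slc30a1 at 9.59 and 2.11, in the same order in both libraries and both quantifications.

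The vesicular zinc transporter was the fourth gene in level. Slc30a3 (chr5:31086106-31108237, minus strand, ENSMUSG00000029151.14) was at 125 TPM in replicate 1 and 101 in replicate 2 (113 ± 17.1, SD, n = 2) and ranked 1332nd. Its neighbours by level were Gemin7 (113), of the complex that assembles spliceosomal ribonucleoproteins, and Commd6 (113). It stood above the vesicular glutamate transporter gene Slc17a7, whose product fills the same kind of vesicle with glutamate, by 1.51-fold in replicate 1 and 2.72-fold in replicate 2. Slc17a7 itself was at 82.7 and 37.2 TPM, and its TPM fell further than that of Slc30a3.

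The regulator and the plasma membrane exporter were low. Mtf1 (chr4:124802104-124849800, plus strand, ENSMUSG00000028890.13) was at 8.22 TPM in replicate 1 and 10.95 in replicate 2 (9.59 ± 1.93), ranked 7816th, beside Prrg2 and Gm11627 (both 9.59). Slc30a1 (chr1:191906767-191913247, plus strand, ENSMUSG00000037434.7) was at 2.44 and 1.78 TPM (2.11 ± 0.467), ranked 12649th, beside Cntrob and Folh1 (both 2.11). The replicates of Mtf1 and Slc30a1 did not overlap with each other or with Slc30a3, which exceeded Slc30a1 by 51.3-fold in replicate 1 and 56.8-fold in replicate 2. The order Mt3, Mt1, Mt2, Slc30a3, Mtf1, Slc30a1 was the same in both libraries and both quantifications, with no overlap between the ranges of neighbours.

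The second quantification, made from the read files rather than from alignments, moved single levels without changing that order. In it Mt1 was at 743 and 768 TPM and Slc30a3 at 91.9 and 79.6, both below the gene tables, whereas Mt3 was at 1002 and 1088. The ratio of Mt3 to Mt1 therefore went from 1.10 and 1.11 in the gene tables to 1.35 and 1.42. In fragments, the second tables gave Mt3 1.99 and 2.33 times as many as the first, against 1.61 and 1.83 for Mt1, 1.67 and 1.96 for Mt2 and 1.37 and 1.61 for Slc30a3. Over all genes that factor was 1.47 in replicate 1 and 1.73 in replicate 2, so that the metallothioneins gained more and Slc30a3 less than the libraries as a whole. Mt2 was at 211 and 180 TPM in the second tables, Mtf1 at 7.56 and 9.81 and Slc30a1 at 2.41 and 1.59.

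In the gene tables Slc30a3 was the highest of the Slc30a exporters and Slc30a1 was among the lowest. Among the 8 other Slc30a genes, most of which move zinc out of the cytosol, 6 reached 1 TPM in both libraries. Slc30a9, a mitochondrial zinc transporter, came closest to Slc30a3, at 47.0 TPM in replicate 1 and 89.4 in replicate 2. In the second quantification it was at 67.2 and 86.4 TPM, below Slc30a3 in replicate 1 (91.9) and above it in replicate 2 (79.6), so the ranges of the pair overlapped there. Slc30a5 (17.0 ± 0.311, SD, n = 2) and Slc30a6 (12.7 ± 2.04), which act together in the early secretory pathway, followed. Slc30a8, the exporter of insulin granules, was lowest, at 0.03 TPM in replicate 1 and listed at 0 in replicate 2. Slc30a1 at 2.11 TPM was therefore below 6 of the other exporters' means and above those of Slc30a2 and Slc30a8.

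The Slc39a importers bring zinc into the cytosol, and 11 of the 14 reached 1 TPM in both libraries. The highest by mean in the gene tables were Slc39a1, at 79.2 ± 8.50 TPM (SD, n = 2), and Slc39a10, at 70.5 ± 27.2, both importers of the plasma membrane. Slc39a10 was the higher of the pair in replicate 2 (89.7 against 85.3 TPM), and in the second quantification their means were 65.5 and 65.3, so their order is not settled. Slc39a7, which releases zinc from the endoplasmic reticulum, was at 54.8 ± 1.23, and Slc39a12, a brain-enriched importer, at 34.8 ± 10.3. Slc39a3 at 28.6 ± 4.02, Slc39a6 at 24.1 ± 11.2 and Slc39a9 at 17.7 ± 2.74 also passed 10 TPM. Slc39a2 was lowest in the gene tables, at 0.165 TPM from 16 and 7 fragments, but the second quantification gave it 161 and 48 fragments and 0.702 TPM, above Slc39a4 (0.265) and Slc39a5 (0.184). Each importer was below each expressed metallothionein in both quantifications. In the gene tables each was also below Slc30a3, whereas in replicate 2 of the second tables Slc39a10, at 81.9 TPM, was above Slc30a3 at 79.6.

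**Figure D2:**
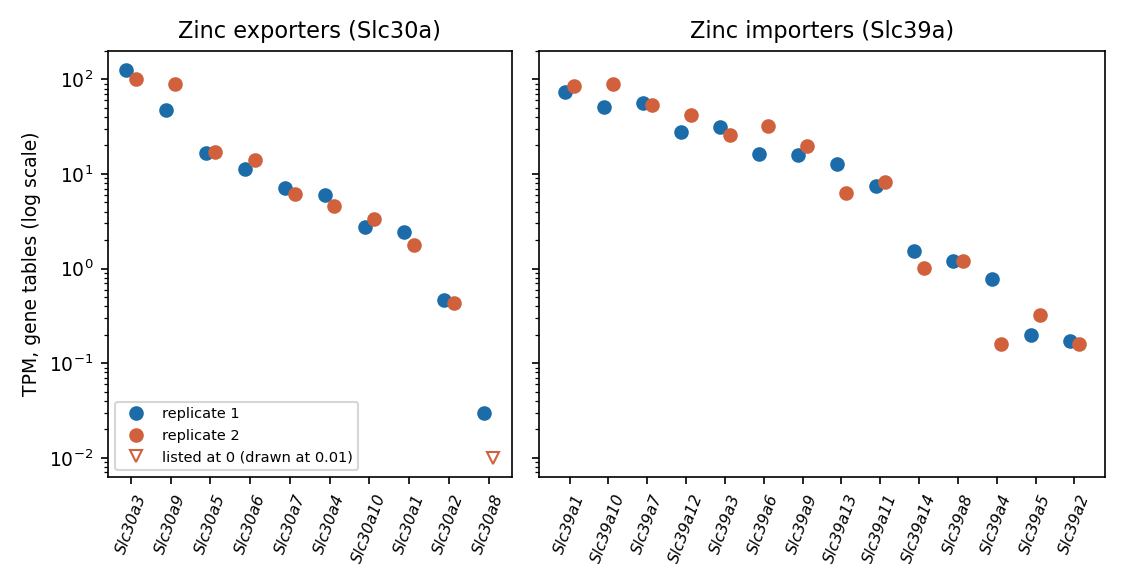
TPM (log scale) of the Slc30a exporters (left) and Slc39a importers (right) in each library, ordered by mean. In these tables Slc30a3 is the highest exporter at 125 and 101 TPM, Slc30a1 is at 2.44 and 1.78, and Slc39a1 has the highest mean of the importers, 79.2.

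The libraries were compared with each other, since the design holds no other contrast. Mt3 and Mt1 differed little between them, and Mt2, Slc30a3 and Slc30a1 were lower in replicate 2. Expected counts were set against each other by an exact two-sided binomial test, adjusted over all genes by Benjamini-Hochberg, and the differences below are log2 ratios of CPM, replicate 2 over replicate 1, with a 95% Clopper-Pearson interval that covers counting error only. It compares these libraries, not conditions.

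Mt3 had 15044 fragments in replicate 1 and 8379 in replicate 2, or 303 and 299 CPM, a log2 ratio of -0.02 (-0.06 to 0.02, adjusted p = 0.424 by the exact test). Mt1 had 14268 and 7813, or 288 and 279 CPM, a ratio of -0.04 (-0.083 to -0.003, adjusted p = 0.0543, exact). Neither Mt3 nor Mt1 passed the threshold of 0.05, although the interval of Mt1, which is not adjusted over genes, was wholly negative. Under total-count scaling both turned positive and passed it, at 0.11 for Mt3 and 0.09 for Mt1. Mt2 had 3552 and 1554 fragments, or 71.6 and 55.5 CPM, a log2 ratio of -0.36 (-0.45 to -0.28, adjusted p = 1.1e-16, exact). Mt2 thus moved apart from the adjacent Mt1, and the intervals of the ratios of Mt1 and Mt2 did not overlap.

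Slc30a3 had 9665 fragments in replicate 1 and 4027 in replicate 2, or 195 and 144 CPM, a log2 ratio of -0.44 (-0.49 to -0.38, adjusted p = 7.45e-60, exact). Slc30a1, with 459 and 186 fragments, or 9.25 and 6.64 CPM, had a ratio of -0.45 (-0.73 to -0.23, adjusted p = 0.000257, exact). The 2 zinc exporters thus had like ratios at depths that differed greatly, and the interval of Slc30a1 was the wider. Mtf1 had 737 and 400 fragments, or 14.9 and 14.3 CPM, a ratio of -0.05 (-0.24 to 0.12, adjusted p = 0.631, exact), which turned to 0.07 under total-count scaling and to 0.01 in the second quantification.

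In all, 3 of the 6 genes were called, all lower in replicate 2 and none higher. Of all 14656 genes tested, 9171 (62.6%) were called, 26.2% higher and 36.4% lower, so a count of 3 of 6 is close to the background and is no result about these genes. The median size of the log2 ratio was 0.21 over the 6 genes and 0.25 over all genes tested. In the second quantification 4 of the 6 were called, with Mt1 the additional one at -0.09 (adjusted p = 3.34e-09, exact), against 69.2% of 15139 genes. With the spread taken from edgeR's common dispersion (a biological coefficient of variation of 0.320, fitted with both libraries as 1 group), the edgeR exact test called none of the 6, each at an adjusted p of 1, against 1.56% of all genes. None of the 6 had an unadjusted p under 0.05 in that test, and the lowest was 0.485, for Slc30a1. Total-count scaling moved the median log2 ratio of all genes from -0.03 to 0.09 and the calls over all genes from 3843 higher and 5328 lower to 5776 higher and 4134 lower. Under it 5 of the 6 genes were called, Mt1 and Mt3 higher and Mt2, Slc30a1 and Slc30a3 lower. The edgeR dispersion was fitted on the same 2 libraries and so takes in the difference under test. The lack of edgeR calls therefore does not show that the 6 genes were alike in the libraries.

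**Figure D3:**
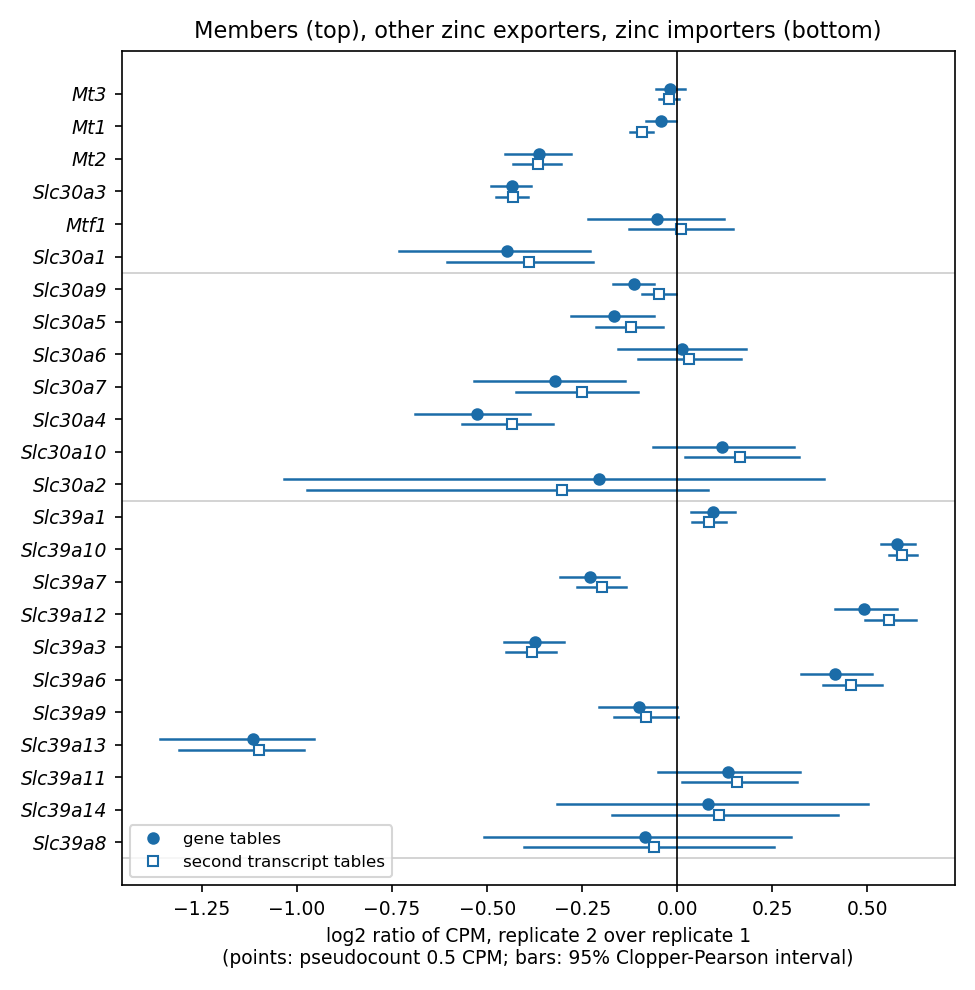
Log2 ratio of CPM, replicate 2 over replicate 1, for the 6 genes and the tested Slc30a and Slc39a genes, as circles for the gene tables and squares for the second transcript tables, with bars for the 95% interval of counting error. Mt3 and Mt1 lie at -0.02 and -0.04, Mt2, Slc30a3 and Slc30a1 between -0.36 and -0.45, and the importers range from -1.11 to 0.58.

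Base composition moved with the ratios of all genes, and the 6 genes lay between 47.0% and 62.3% GC. The transcripts of Mt3 had a GC content of 62.3%, those of Slc30a3 60.3%, Mt1 58.1%, Mt2 55.6%, Mtf1 49.1% and Slc30a1 47.0%. The tested genes within 2.5 points of Mt3 had a median log2 ratio of -0.53, those near Slc30a3 -0.35, those near Mt1 -0.23 and those near Mt2 -0.13. Near Mtf1 and Slc30a1 the medians were -0.01 and 0.03. Mt3, at -0.02, therefore stood above the middle of genes of like composition, and Slc30a3, at -0.44, stood close to it. Slc30a1, at -0.45, stood below the genes around it. With smooth trends on GC content and length removed, the ratios were 0.37 for Mt3, 0.06 for Mt1, -0.38 for Mt2, -0.06 for Slc30a3, -0.04 for Mtf1 and -0.38 for Slc30a1. The part of base composition in these differences was not tested.

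**Figure D4:**
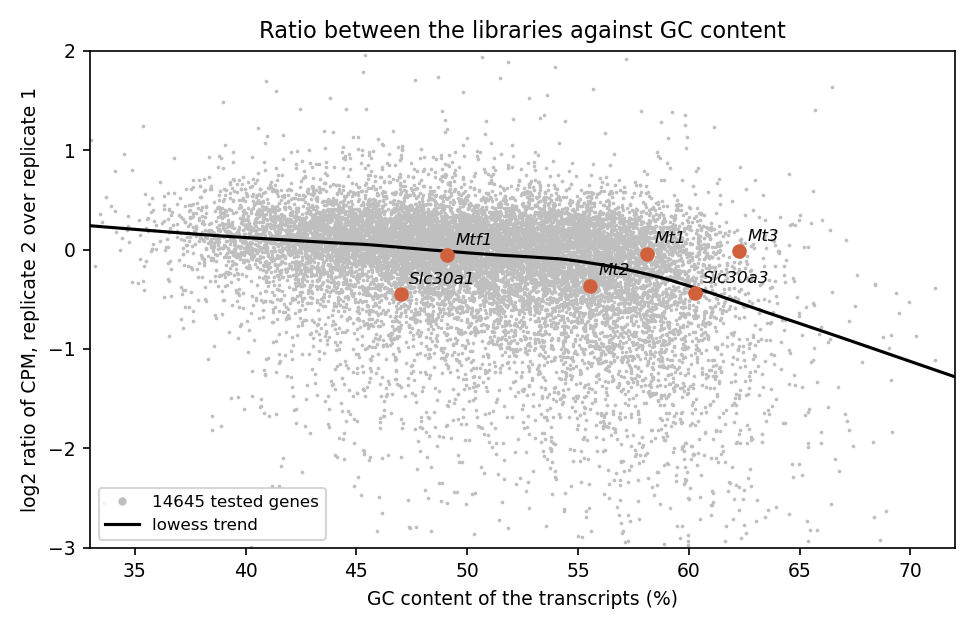
Log2 ratio of CPM, replicate 2 over replicate 1, against the GC content of the transcripts for 14645 tested genes (grey), with a lowess trend (black) and the 6 genes (orange); 84 genes lie outside the axes. Mt3 (62.3% GC, ratio -0.02) lies above the trend, Slc30a3 (60.3%, -0.44) on it, and Mt2 and Slc30a1 below it.

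A single transcript carried nearly all of the level of most of these genes. Mt1-201 took 99.8% of the TPM of Mt1 in replicate 1 and 99.9% in replicate 2, Mt2-201 took 99.3% and 100% of Mt2, and Mt3-201 took 98.9% and 98.3% of Mt3. Slc30a3-201 took 99.7% and 99.3% of Slc30a3. Slc30a1-201 took 91.2% and 100% of Slc30a1, and 70.8% and 100% in the second quantification, where a short transcript, Slc30a1-202 (677 bases), received 28.5 fragments in replicate 1 and 0 in replicate 2. With so few fragments the share of Slc30a1-201 in replicate 1 rests on how those few were assigned.

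Mtf1 was the exception, and its level in TPM depended on which transcript its fragments were given to. The retained intron transcript Mtf1-204 (781 bases) was at 4.26 TPM in replicate 1 and 6.32 in replicate 2, or 51.9% and 57.7% of the gene, from 106 and 84.9 fragments. The full-length coding transcript Mtf1-201 (7631 bases) received 576 and 250.5 fragments, most of those of the gene, and was at 1.92 and 1.64 TPM. The short coding transcript Mtf1-203 (636 bases) was at 1.98 and 2.76 TPM from 37.5 and 28.8 fragments. In the second quantification Mtf1-203 was the highest in replicate 1, at 3.36 TPM (44.5%), and Mtf1-204 in replicate 2, at 5.30 TPM (54.1%). The effective length of Mtf1 averaged over its transcripts went from 2231 bases in replicate 1 to 1790 in replicate 2. Its TPM was accordingly higher in replicate 2 (10.95 against 8.22), while its CPM was not (14.3 against 14.9).

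**Figure D5:**
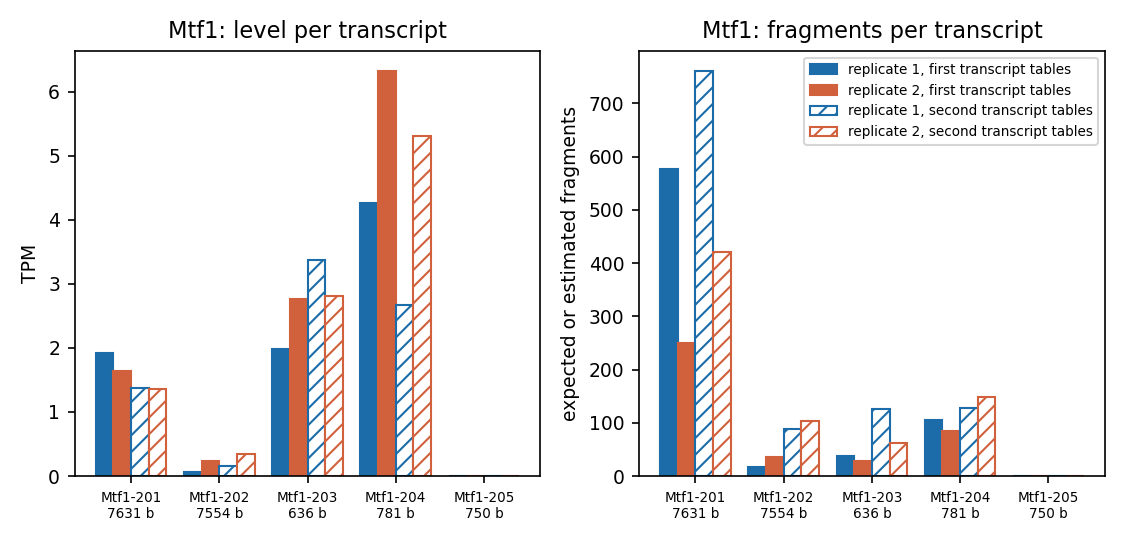
TPM (left) and fragments (right) of the 5 annotated Mtf1 transcripts in each library, filled for the first and hatched for the second transcript tables, with transcript lengths in bases under the names. Mtf1-201 holds most fragments (576 and 250.5) and Mtf1-204 most of the TPM in the first tables (4.26 and 6.32).

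Sequence shared with other genes limits how exactly fragments could be assigned to Mt2 and, to a lesser extent, to Mtf1 and Slc30a1. Of the 31-base words of Mt2-201, read on either strand, 43.9% occurred in no other annotated gene, and the others were found in Gm45774 and Pip5k1a. Gm45774 is an annotated antisense gene whose span overlaps that of Mt2 over 749 bases, and was given 40.2 fragments in replicate 1 and 15.1 in replicate 2. Pip5k1a, a lipid kinase gene elsewhere in the genome, had 816 and 688 fragments. How far the shared words affect the level of Mt2 was not tested, and whether the counting used strand was not stated in the labels or notes. All words of the main transcripts of Mt1, Mt3, Mt4 and Slc30a3 were their own, so the family members did not share a 31-base word with each other.

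Mtf1 overlaps the coding gene 1110065P20Rik, on the opposite strand, over 721 bases, and that gene had 2385 and 905 fragments, more than Mtf1 itself. Of the words of Mtf1-201, 90.9% occurred in no other gene, as did all words of Mtf1-203 and Mtf1-204. Slc30a1 overlaps the antisense gene 1700034H15Rik (761 bases, 41.7 and 16.4 fragments). Of the words of Slc30a1-201, 91.6% occurred in no other gene, and of those of Slc30a1-202, 62.6%. Slc30a3 overlaps Gm9924, with 14 fragments in each library, and Dnajc5g, with 0. Without strand, fragments from words that both genes of a pair hold cannot be told apart. Slc30a3 shared no 31-base word with Gm9924 or Dnajc5g.

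The other genes of zinc and copper handling did not move together between the libraries, and neither did all genes tested (36.4% lower, 26.2% higher). Of the 7 tested Slc30a genes outside the 6, 4 were lower in replicate 2, none was higher and 3 were not called (median log2 ratio -0.17, against -0.03 over all genes tested). Under total-count scaling 1 was higher and 1 lower, and Slc30a9 changed sign. Slc30a4, which fills endosomal and vesicular stores, was lowest at -0.53. Of the 11 tested Slc39a importers, 4 were higher and 3 lower (median 0.08). Slc39a10 at 0.58, Slc39a12 at 0.49 and Slc39a6 at 0.42 rose, and Slc39a13, an importer of the secretory pathway, fell to -1.11, as did Slc39a3 to -0.37 and Slc39a7 to -0.23, all with the same sign under each scaling. Slc39a1 was at 0.09 and was called higher.

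Of the 10 copper genes, 4 were higher and 2 lower (median 0.09), against 26.2% and 36.4% of all genes tested. The cytochrome c oxidase copper chaperone Cox17 (635 ± 28.0 TPM, SD, n = 2) and the copper chaperone Atox1 (384 ± 40.7) were the highest of them, at log2 ratios of 0.14 and 0.22, and ceruloplasmin, Cp, had the ratio farthest from 0, at -0.68. Cox17 and Atox1 were thus between Mt1 and Slc30a3 in level, and each other gene of the copper list was below Slc30a3. The 4 genes listed as other targets of Mtf1 had 2 higher, 1 lower and 1 not called. Csrp1, a LIM domain protein, was at -1.03, and Slc39a10, also counted among the importers, was at 0.58. The list does not say whether Mtf1 raises or lowers each gene, so these directions say nothing about Mtf1.

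The genes around vesicular zinc at glutamate synapses also went both ways, as did all genes tested (36.4% lower, 26.2% higher). Of 11 tested, 4 were higher and 6 lower (median -0.21). The NMDA receptor subunit gene Grin1, whose receptor is inhibited by zinc, was highest at 93.8 ± 31.5 TPM (SD, n = 2), with a log2 ratio of -0.89. Slc17a7 had a ratio of -1.29 and the zinc-binding scaffold gene Shank3 one of -1.85. Slc30a3, at -0.44, had a ratio nearer to 0 than these 3 genes. The subunits of the AP-3 adaptor, which sorts the Slc30a3 protein to synaptic vesicles, were split, with Ap3m2 at 0.21 and Ap3b2 at 0.22 and with Ap3d1 at -0.21 and Ap3s2 at -0.70. Under total-count scaling the counts of lower genes were again 3 importers, 2 copper genes, 1 other Mtf1 target and 6 synaptic genes, and those of higher genes grew to 5, 7, 3 and 5.

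Genes induced by the stimuli that also raise Mt1 and Mt2 were more often called lower than higher in replicate 2. Over all genes tested 36.4% were lower and 26.2% higher. Of 11 tested glucocorticoid-responsive genes, 8 were lower, 3 were not called and none was higher (median -0.38), with Tsc22d3 (73.8 ± 15.5 TPM, SD, n = 2) at -0.56, the inhibitor of NF-kappa-B gene Nfkbia (49.5 ± 5.23) at -0.38 and Ddit4 at -1.88. The twelfth gene of that list, Plin4, had 7 fragments in replicate 1 and 27 in replicate 2, was too low to be tested, and was the 1 gene called higher when no filter was used. Of 8 oxidative stress genes, 5 were lower, 3 were not called and none was higher (median -0.45), with the glutathione synthesis gene Gclm at -1.81 and the glutathione transferase gene Gsta4 at -0.01. Under total-count scaling 1 of the glucocorticoid and 2 of the oxidative stress genes were higher, and 7 and 4 lower. Beside them stand Mt2 at -0.36 and Mt1 at -0.04. The part of either stimulus in these values was not tested.

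Markers of the cells that are known to make these genes did not follow them in 1 direction. Among all genes tested, 26.2% were higher and 36.4% lower in replicate 2. Of the 12 astrocyte markers, 7 were higher and 5 lower in replicate 2 (median 0.09), with Glul at 0.98, and their summed level was 2201 TPM in replicate 1 and 2543 in replicate 2. Of the 8 excitatory neuron markers, 2 were higher and 4 lower (median -0.33), or 4 and 4 under total-count scaling, with Camk2a at 0.09, Arpp21 at 0.29 and Tbr1 at -1.69, and their summed level was 1804 and 1935 TPM. None of either list was at 0. Among 10 further cell type lists, the medians ran from -0.85 for 4 tested erythroid genes to 0.22 for 9 interneuron genes. Of 7 endothelial markers, 3 were higher and 2 lower, and of 6 fibroblast and meningeal markers none was higher and 4 were lower. The 3 metallothioneins summed to 2182 and 2094 TPM, and Slc30a3 went from 125 to 101. Both marker sums were higher in replicate 2. In the excitatory neuron sum, Camk2a (848 and 1083 TPM) and Arpp21 (353 and 597) were higher there, while 4 of the 8 markers were called lower. The part of cell composition in these differences was not tested.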

How the data were processed

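Poly(A)+ RNA was measured in 2 libraries of left cerebral cortex, which formed 1 group from the tissue label. Each had 3 tables on mm10 with GENCODE M21, per the deposited notes. The gene and first transcript tables held expected counts without normalization, TPM and the percent of a gene's TPM per transcript, which the authors made from alignments to the transcriptome, per the deposited notes. In the second transcript tables the authors deposited estimated counts and TPM quantified from the read files, per the deposited notes, and these were summed over each gene. The sources used here do not name the aligner or the quantifiers.

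Expected counts were rounded to whole numbers. Rows that name no gene (26248 with numeric names and 97 spike-ins, 1.73e-05 and 3.35e-05 percent of fragments) were left out. Library sizes were scaled by TMM (edgeR 4.0.16, R 4.3.3). Genes averaging at least 1 CPM were compared between the libraries by an exact two-sided binomial test (scipy 1.17.1) with Benjamini-Hochberg adjustment at 0.05, and log2 ratios used a pseudocount of 0.5 CPM. edgeR's quasi-likelihood test needs replicates within 2 groups and was not run. The test was checked on simulated data with counting error only, so the check does not cover further spread between libraries. Protein sequences were not used here, and coding sequences took their place.

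Alternatives were the second tables, full annotated length, TPM over nuclear genes alone, each library alone, total-count scaling, DESeq2 1.42.0 size factors, other filters and pseudocounts, removal of lowess trends on GC content and length, and edgeR's exact test at the common dispersion. Promoter windows came from RefSeq (GRCm38.p6). Named genes were the 6 and Mt4, zinc transporters at a mean TPM of at least 10 with the highest and lowest of each family, the 2 highest and the largest ratio of each other list described, and the nearest coding genes in level. Slc30a2, Slc30a4, Slc39a4, Slc39a5, Slc39a13, Plin4, Gm45774, Pip5k1a and the other overlapping genes, the AP-3 genes and Slc17a7 were named after their values were seen. The genes and lists were chosen with earlier results of these data known.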

Additional observations from a re-analysis of the deposited data

How the results depend on the processing

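The mean levels of Mt2, Mtf1 and Slc30a1 moved by less than 1 SD under each alternative. In the second tables Mt1 was at 756 TPM, Mt3 at 1045 and Slc30a3 at 85.8. With full annotated lengths Mt1 and Mt3 were at 800.5 and 875, and over nuclear genes alone at 1009 and 1113. In single libraries the levels ranged from 899 to 920 (Mt1), 196 to 255 (Mt2), 999 to 1007 (Mt3), 8.22 to 10.95 (Mtf1), 1.78 to 2.44 (Slc30a1) and 101 to 125 (Slc30a3).

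Total-count scaling reversed the log2 ratios of Mt1 (0.085, adjusted p = 5.73e-05 by the exact binomial test), Mt3 (0.11, adjusted p = 6.8e-08) and Mtf1 (0.070), and 5 of the 6 genes were called. In the second tables Mtf1 was at 0.0093 and Mt1 at -0.093 (adjusted p = 3.34e-09, exact). At a mean CPM of at least 5, Mt1 passed the threshold at -0.043 (adjusted p = 0.0489, exact). Removal of GC and length trends reversed Mt1 (0.062) and Mt3 (0.37) and moved Slc30a3 to -0.064. With edgeR's exact test at the common dispersion, Mt2 (-0.36), Slc30a1 (-0.45) and Slc30a3 (-0.44) had an adjusted p of 1, and 0 of the 6 and 228 genes in all were called. In these cases the cause was not tested, and the edgeR dispersion takes in the difference that it tests. DESeq2 size factors, no filter and the other pseudocounts kept each direction and each call. In the second tables the share of the main transcript was 97.95% for Mt2-201, 44.7% for Mtf1-204, 85.4% for Slc30a1-201 and 98.95% for Slc30a3-201.

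No paired analysis was possible because the libraries form 1 group, so no groups share replicate numbers. With 2 libraries the spread between animals is not known, and 459 and 186 fragments limit the precision of Slc30a1.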
